A study of Mus musculus with 8 samples.

Results

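The integrated stress response was followed in these data through 10 genes, *Atf4*, *Atf5*, *Ddit3*, *Trib3*, *Asns*, *Chac1*, *Ppp1r15a*, *Xbp1*, *Herpud1* and *Sesn2*. Every probe that carries one of these gene names on the array was taken, whatever its values. They have 17 of the 56605 probes on the array. The RNA came from male C57BL/6J mice, 12 weeks old, on normal chow. Co mice (n = 4) received 100 μL of saline into a vein once, and Pg mice (n = 4) the same volume with sonicated *P. gingivalis*. The dose reads 108 CFU in the labels and 10 to the power 8 CFU in the study's methods. Tissue labelled as brown adipose tissue, from interscapular fat according to the methods, was taken 18 h later, and the RNA of each mouse was hybridized to 1 Agilent one-color array.

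In the integrated stress response, kinases that sense misfolded protein, amino acid shortage, heme shortage or double-stranded RNA phosphorylate the translation factor eIF2α. Most protein synthesis then falls, while translation of the transcription factor ATF4 rises, and ATF4 raises the mRNA of genes for amino acid supply, redox balance and recovery of translation. *Xbp1* and *Herpud1* belong to the neighbouring unfolded protein response of the endoplasmic reticulum. The arrays measured mRNA; eIF2α phosphorylation, translation of *Atf4* and splicing of *Xbp1* were not analysed here.

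None of these mRNAs rose past the threshold in Pg mice, and 2 of the genes had a probe that fell. Levels are given as log2 signal, the background-subtracted intensity after quantile normalization between the 8 arrays, and differences as Pg minus Co on that scale, with the standard error and the adjusted p of limma's moderated test over the 33820 probes that were above background on at least 4 arrays. *Herpud1* and *Atf4* each had 1 probe that was lower in Pg mice at an adjusted p under 0.1, and in both genes it was the probe nearer the 5′ end of the transcript. Of the 17 probes, 0 were higher at this threshold. *Chac1* had the largest difference in mean, but its Co and Pg values overlapped.

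All 17 member probes were tested, 16 of them above background on all 8 arrays and none saturated. By limma's test 2 of 17 had an adjusted p under 0.1, against 7.82% of all probes tested, and both were lower, as were 6% of all probes tested (1.82% were higher). None had in addition a fold change above 1.5, which 1.61% of all probes tested had (1.3% lower and 0.313% higher). At an unadjusted p under 0.05 there were 4 member probes, all lower (22.8% of all probes tested, 16% lower and 6.86% higher). Lower means in Pg mice were found for 12 of the 17 and for 57.7% of all probes tested, and higher means for 5 and for 42.3%. Co and Pg values were fully separate for 3 of the 17, all lower, and for 15.8% of all probes tested (11% lower and 4.83% higher). The median difference was −0.11 over the member probes and −0.04 over all probes. These member counts are small, and none is read here as setting the genes apart from the rest of the array.

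The probes of *Herpud1* and *Atf4* are shown because the results turn on which of a gene's probes is read. Each is 60 bases long, and its first 30 bases are given as deposited, 5′ to 3′, with positions on mouse build mm9, all on the + strand. The gene part that each covers was not determined, as no annotation of that build was used here.
*Herpud1*, nearer the 5′ end, chr8:96918575-96918634: tttatgagcacagcatggctagtcttcaag
*Herpud1*, nearer the 3′ end, chr8:96919117-96919176: tagcaggacttttctaggagagacttatgt
*Atf4*, nearer the 5′ end, chr15:80087079-80087138: ggacagattggatgttggagaaaatggatc
*Atf4*, nearer the 3′ end, chr15:80087902-80087961: ggtgctttgtgcttgtacatagtcttgtgt

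*Herpud1* encodes a membrane protein of the endoplasmic reticulum that takes part in the degradation of misfolded proteins. Its probe nearer the 5′ end had a log2 signal of 11.85, 11.68, 11.82 and 11.67 in Co replicates 1 to 4 and of 11.28, 11.34, 11.43 and 11.22 in Pg replicates 1 to 4. All 4 Pg mice were below all 4 Co mice. In Pg mice the signal was 1.36-fold lower, a difference of −0.44 (standard error 0.07; limma, adjusted p = 0.045) with a 95% interval from −0.61 to −0.27. Leaving out each array in turn kept the call 7 times of 8. It was lost without Co replicate 3 (limma, adjusted p = 0.113), where only 2 of all probes tested passed. It was also lost with the replicate number as a block (adjusted p = 0.122), where 0 of all probes tested passed. Arrays of the same number lay in the same column of the slide. The probe nearer the 3′ end had a log2 signal of 13.55, 13.29, 13.46 and 13.31 in Co mice and of 13.24, 13.16, 13.27 and 13.07 in Pg mice. These values did not overlap either, but the difference, −0.22 (standard error 0.08), did not pass the threshold (adjusted p = 0.165). In the authors' normalized values it was −0.359 and did pass (limma, adjusted p = 0.0711).

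*Atf4*, the transcription factor at the centre of the response, is controlled mainly through translation, but its mRNA can change as well. Its probe nearer the 5′ end had a log2 signal of 12.19, 12.46, 12.26 and 12.25 in Co mice and of 12.06, 11.95, 11.94 and 11.98 in Pg mice. All Pg values were below the Co values, which was a 1.24-fold lower signal with a difference of −0.31 (standard error 0.07; limma, adjusted p = 0.0706). When each array was left out in turn, the call was kept 1 time of 8 (without Co replicate 1), with adjusted p from 0.0968 to 0.138. It was lost with the replicate block (limma, adjusted p = 0.153), where 0 of all probes tested passed. The probe nearer the 3′ end had a log2 signal of 15.95, 15.99, 15.81 and 15.93 in Co mice and of 16.02, 15.79, 15.86 and 15.81 in Pg mice. Here the groups overlapped and the difference was −0.05 (standard error 0.07, adjusted p = 0.723), with a 95% interval from −0.22 to 0.12. In the authors' normalized values the same probe differed by −0.228 (limma, adjusted p = 0.134), and with median signals by −0.158 (adjusted p = 0.282), so that the size of its difference depends on the processing.

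**Figure D1:**
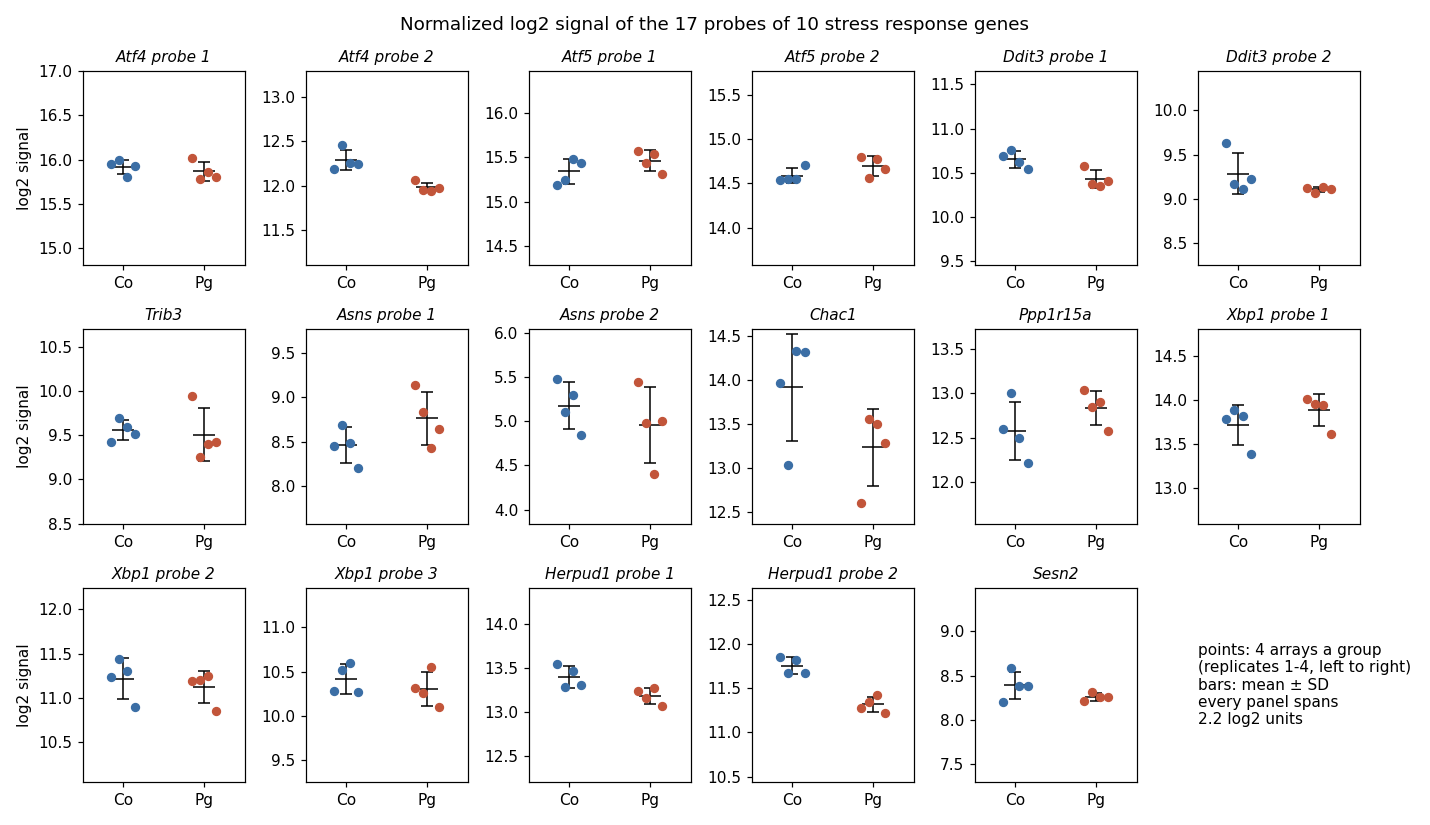
Normalized log2 signal (y axis) of each of the 17 probes in Co and Pg mice. Points are the 4 arrays of a group, bars the mean ± SD, and every panel spans the same range. Where a gene has several probes they are numbered from the brightest. In *Herpud1* probes 1 and 2 and *Atf4* probe 2 the Pg points lie below all Co points, and in the other 14 panels the groups overlap.

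*Ddit3* encodes CHOP, a transcription factor downstream of ATF4 that promotes cell death when stress persists. Its probe for NM_007837 had a log2 signal of 10.68, 10.76, 10.62 and 10.54 in Co mice and of 10.57, 10.38, 10.35 and 10.41 in Pg mice. Only Pg replicate 1 lay within the Co range. The difference was −0.23 (standard error 0.08, unadjusted p = 0.0171, adjusted p = 0.136 from limma). The second probe, named for an Ensembl transcript, differed by −0.17 (adjusted p = 0.39), with Co replicate 1 at 9.63 and the other Co mice at 9.12 to 9.23.

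*Chac1*, an ATF4 target, encodes an enzyme that breaks down glutathione. Its single probe had a log2 signal of 13.96, 13.04, 14.33 and 14.32 in Co mice and of 12.61, 13.56, 13.50 and 13.28 in Pg mice. Of the 4 Co mice, 3 were above every Pg mouse, while Co replicate 2 was lower than 3 of the Pg mice. The difference of −0.68 is 1.60-fold, but with a standard error of 0.33 it did not pass (adjusted p = 0.268 from limma), and its 95% interval ran from −1.44 to 0.09. The SD of *Chac1* was 0.61 in Co and 0.43 in Pg mice, the widest spread of the 17 probes in each group.

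None of the probes of *Asns*, *Trib3* and *Sesn2* passed the threshold. *Asns* encodes asparagine synthetase. Its probe nearer the 3′ end had a log2 signal of 8.45, 8.69, 8.49 and 8.20 in Co mice and of 9.14, 8.84, 8.43 and 8.64 in Pg mice, where replicates 1 and 2 lay above all Co mice. The difference was 0.30 (standard error 0.17, adjusted p = 0.316 from limma). The other *Asns* probe, above background on 4 Co and 3 Pg arrays, differed by −0.22 (adjusted p = 0.598). *Trib3* encodes a pseudokinase that inhibits AKT and ATF4 itself. It ranged from 9.43 to 9.70 in Co mice, and in Pg mice replicate 1 was at 9.94 and the others at 9.25 to 9.43, so that the mean difference was −0.05 (adjusted p = 0.858). *Sesn2*, a leucine sensor that restrains mTORC1, ranged from 8.20 to 8.58 in Co and from 8.21 to 8.31 in Pg mice, a difference of −0.13 (adjusted p = 0.39).

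*Atf5* encodes a factor related to ATF4 that is linked to the mitochondrial stress response. Its 2 probes were close together on chromosome 7 and differed by 0.12 (adjusted p = 0.466 from limma) and 0.11 (adjusted p = 0.422), with overlapping groups. *Ppp1r15a* encodes GADD34, which guides a phosphatase to eIF2α and so ends the response. It had a log2 signal of 12.60, 12.9995, 12.49 and 12.21 in Co mice and of 13.03, 12.85, 12.90 and 12.58 in Pg mice. Co replicates 1 and 2 lay among the Pg values, and the difference was 0.26 (standard error 0.17, adjusted p = 0.399 from limma).

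*Xbp1* encodes a transcription factor whose mRNA is spliced by the sensor IRE1 during endoplasmic reticulum stress. The outer of its 3 probes lay 947 bases apart on chromosome 11. The one nearest the 3′ end had a log2 signal of 13.79, 13.88, 13.82 and 13.38 in Co mice and of 14.01, 13.96, 13.94 and 13.61 in Pg mice, a difference of 0.16 (adjusted p = 0.511 from limma). Replicate 4 was the lowest in each group, and the other 3 Pg mice were above all Co mice. The other probes differed by −0.09 (adjusted p = 0.713) and −0.11 (adjusted p = 0.623). All 3 intervals of the difference held 0, from −0.15 to 0.47 for the first.

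**Figure D2:**
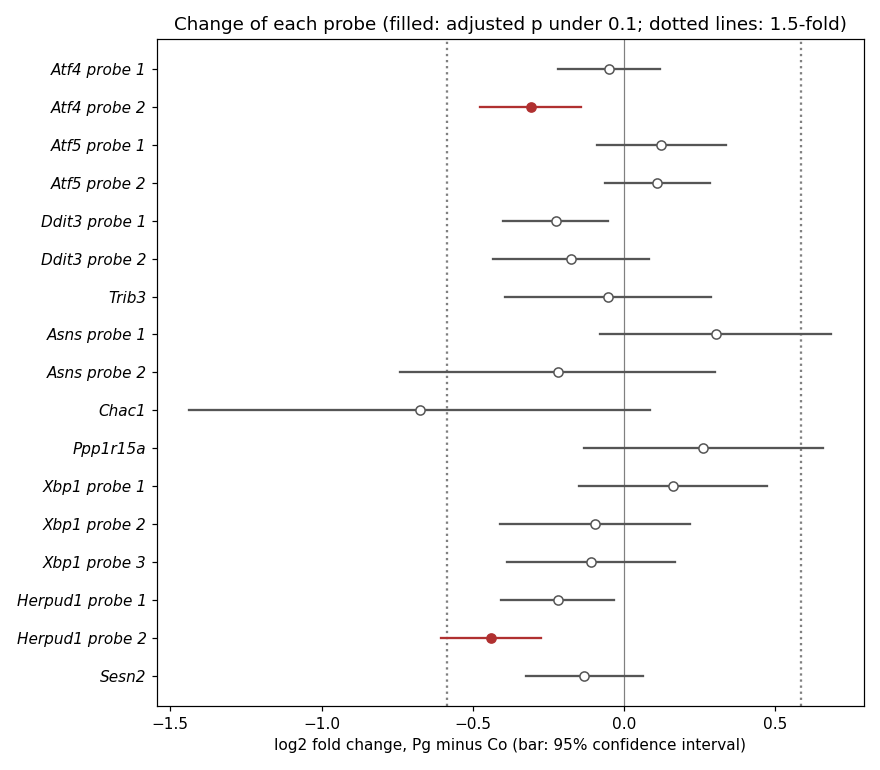
Difference of each probe between Pg and Co mice on the log2 scale (x axis, Pg minus Co) with its 95% confidence interval; filled points have an adjusted p under 0.1 and dotted lines mark a fold change of 1.5. Only *Atf4* probe 2 and *Herpud1* probe 2 are filled, at −0.31 and −0.44, and the interval of *Chac1* is the widest.

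With only the probe nearest the 3′ end of each gene, 4 genes were higher and 6 lower in Pg mice. None of the 10 then had an adjusted p under 0.1 in limma (lowest 0.136), and 2 had an unadjusted p under 0.05. Of all genes, each read by its brightest probe, 6.23% and 20.3% passed these limits, and 47.2% were higher. The reading by the 3′ probe was added after the values were seen, and its counts are not read as an effect of probe position. The position of the probe was also followed over the whole array. For 2557 genes with probes 50 to 5000 bases apart on the same accession and above background on all arrays, the signal of the probe nearest the 3′ end was set against that of the probe nearest the 5′ end. The median of this difference was 1.48, 1.46, 1.49 and 1.5 on the Co arrays and 1.62, 1.58, 1.57 and 1.63 on the Pg arrays. All Pg arrays lay above all Co arrays, for which a two-sided exact permutation test gave p = 0.0286, its lowest possible value with 4 arrays a group, and the difference was larger in Pg mice for 73.6% of the genes.

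In the same comparison fitted gene by gene with limma, 31.6% of the 2557 genes had an adjusted p under 0.1 (726 larger and 83 smaller in Pg mice). In *Herpud1*, whose probes are 542 bases apart, the 3′ probe exceeded the 5′ probe by 1.69, 1.61, 1.64 and 1.64 in Co mice and by 1.96, 1.82, 1.85 and 1.85 in Pg mice, a shift of 0.22 (adjusted p = 0.0238 from limma). In *Atf4*, at 823 bases, the shift was 0.26 (adjusted p = 0.0336), again with no overlap. In *Xbp1*, at 947 bases, it was 0.27 (adjusted p = 0.1) with overlap, and in *Atf5*, at 91 bases, 0.01 (adjusted p = 0.921). The probes of *Asns* and *Ddit3* were not part of this comparison.

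The shift went with the brightness of the probes as well. It had a median of 0.14 in the 2114 genes whose 3′ probe was the brighter one, as in these 4 members, and of −0.02 in the 443 genes whose 3′ probe was dimmer, where Co and Pg overlapped (two-sided exact permutation, p = 0.371). Between 34761 and 35831 probes were above background on the Co arrays and between 31135 and 34066 on the Pg arrays. The part of probe position, of brightness and of the fewer probes above background in the lower *Herpud1* and *Atf4* signal was not tested. The integrity of the RNA, which can shift signal between the ends of a transcript, was not analysed here, so its part was not tested either. All arrays lay on 1 slide, Co in row 1 and Pg in row 2, so that row and treatment cannot be told apart.

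**Figure D3:**
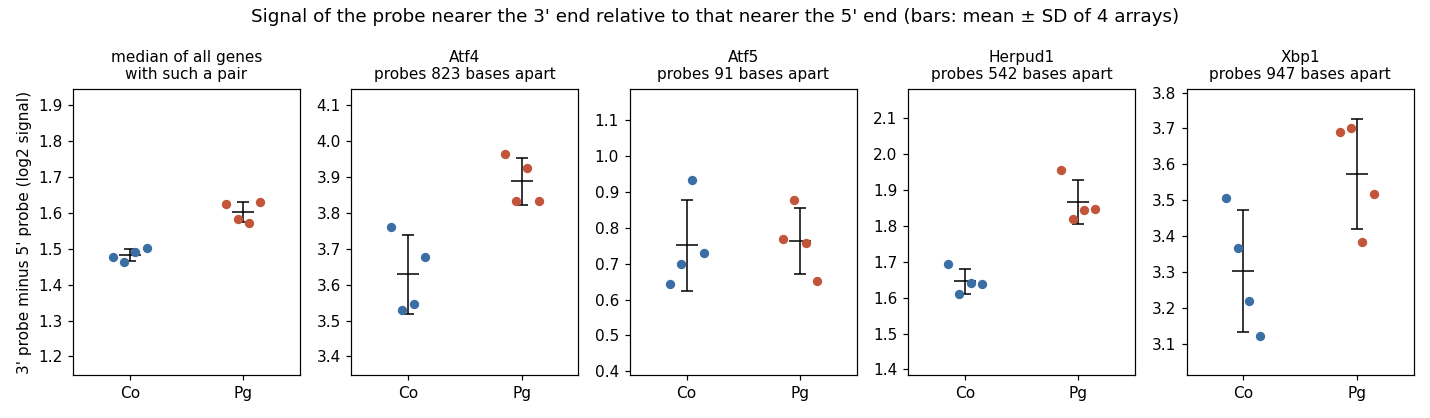
Log2 signal of the probe nearest the 3′ end minus that of the probe nearest the 5′ end (y axis) by array, as the median of 2557 genes (left) and for the 4 members with such a pair. Points are arrays and bars the mean ± SD of 4. The Pg arrays lie above all Co arrays in the median, in *Atf4* and in *Herpud1*, while *Atf5* and *Xbp1* overlap.

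The windows of 250 bases before the transcription start were searched for the sequences by which these genes are known to be switched on, as RefSeq gives them on GRCm38.p6. They were the C/EBP-ATF response element bound by ATF4 (TGATGNAA), the endoplasmic reticulum stress elements ERSE (CCAAT, 9 bases of any kind, then CCACG) and ERSE-II (ATTGG, 1 base of any kind, then CCACG), and the XBP1 element UPRE (TGACGTGG), each on both strands. The first was found before *Asns*, *Chac1* and *Herpud1*, in 3 of the 11 windows of the 10 genes and in 3.45% of 32851 windows. ERSE-II was found before *Herpud1* only, against 0.0304% of all windows. ERSE and UPRE, in 0.113% and 0.563% of all windows, had no match among the members. The windows that hold a match are printed 5′ to 3′ on the strand of the gene, with the matches in capitals. A match on the opposite strand appears as its reverse complement.
*Herpud1*, + strand, chr8:94386179-94386428: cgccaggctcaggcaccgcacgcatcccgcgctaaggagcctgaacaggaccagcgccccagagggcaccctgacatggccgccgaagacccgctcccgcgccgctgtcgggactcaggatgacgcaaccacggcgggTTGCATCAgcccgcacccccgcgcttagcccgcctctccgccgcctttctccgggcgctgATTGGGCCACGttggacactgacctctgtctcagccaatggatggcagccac
*Chac1*, + strand, chr2:119350992-119351241: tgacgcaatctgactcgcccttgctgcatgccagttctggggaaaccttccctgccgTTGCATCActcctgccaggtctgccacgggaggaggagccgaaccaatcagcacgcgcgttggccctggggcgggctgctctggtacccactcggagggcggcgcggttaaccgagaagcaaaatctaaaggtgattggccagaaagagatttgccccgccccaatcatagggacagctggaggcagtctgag
*Asns*, − strand, chr6:7693210-7693459: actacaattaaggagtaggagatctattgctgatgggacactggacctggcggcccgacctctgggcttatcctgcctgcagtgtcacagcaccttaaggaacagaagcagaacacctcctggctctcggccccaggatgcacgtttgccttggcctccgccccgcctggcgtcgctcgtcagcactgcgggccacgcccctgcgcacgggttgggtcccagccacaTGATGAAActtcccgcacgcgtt

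The match to the ATF4 element lay 112 to 105 bases before the start in *Herpud1*, 193 to 186 in *Chac1* and 23 to 16 in *Asns*. ERSE-II lay 52 to 42 bases before the start of *Herpud1*. Of the 3 genes with the ATF4 element, the probes nearest the 3′ ends differed by −0.22 (*Herpud1*), −0.68 (*Chac1*) and 0.30 (*Asns*), none past the threshold. The other *Asns* probe differed by −0.22, and the first by 0.048 in the authors' normalized values, so that no direction is given for *Asns*.

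The members also varied among the mice within a group. Over the 8 arrays, with the brightest probe of each gene, Pearson's r was 0.89 between *Xbp1* and *Ppp1r15a*, 0.76 between *Ppp1r15a* and *Asns* and 0.74 between *Atf4* and *Trib3*. *Chac1* ran the other way, with r = −0.85 against *Ppp1r15a* and −0.83 against *Asns*. After the group means were removed these were 0.86, 0.67, 0.74, −0.79 and −0.74. The strongest pairs within groups were *Chac1* with *Ddit3* (r = −0.91) and *Ddit3* with *Asns* (r = 0.89), which over all 8 arrays had r = 0.037 and −0.0087. These pairs were picked for their size after the values were seen, and describe 8 arrays that share a slide and the normalization. Among 29222 other probes above background on all arrays, those most like *Herpud1*, by its probe nearer the 5′ end, included a transcript listed as ENSMUST00000190584 (r = 0.99) and *Insig2* (r = 0.99), which holds back cholesterol synthesis. *Insig2* was 10.49 ± 0.05 (SD, n = 4) in Co mice and 10.14 ± 0.08 in Pg mice (limma, adjusted p = 0.0507). These probes were picked for their r over the 8 arrays, which takes in the difference between Co and Pg. Their r within groups was not computed.

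Around the members, 138 other genes of the response were read in 6 lists, each gene by its brightest tested probe. Of these, 135 were tested, 3 rose and 7 fell at an adjusted p under 0.1 (7.41%, against 6.23% of the 22324 genes on the array read in this way, 2.05% higher and 4.18% lower). None of them passed the fold change of 1.5 as well. With the replicate block 0 passed the adjusted p, as did 0 of all probes tested. At an unadjusted p under 0.05 there were 10 higher and 21 lower, against 20.3% of all genes in both directions. Higher means were found for 56 of the 135 and for 47.2% of all genes. Their median difference was −0.03, and −0.01 over all genes.

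The eIF2α list holds the kinases, eIF2 and its exchange factor, and regulators. Of its 20 genes 1 fell, *Dele1* (listed as *0610009O20Rik*), which relays mitochondrial stress to the kinase HRI. It was 12.37 ± 0.05 (SD, n = 4) in Co and 12.15 ± 0.04 in Pg mice (adjusted p = 0.0714 from limma). *Eif2ak1*, which encodes HRI, was the lowest of the list by difference, at −0.29 (adjusted p = 0.118) with no overlap between groups, which 14.3% of all genes showed. *Impact*, an inhibitor of the amino acid sensing kinase GCN2, was the highest at 0.22 (adjusted p = 0.255).

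The second list holds partner factors and stress targets of ATF4 and CHOP. Its median of −0.28 was the lowest of the 6 lists, with 16 of 25 tested genes lower, and 2 of them rose and 1 fell. *Ero1a* (listed as *Ero1l*), the oxidase that drives disulfide formation in the endoplasmic reticulum, rose from 9.60 ± 0.05 (SD, n = 4) to 9.89 ± 0.08 (adjusted p = 0.0584 from limma). *Tnfrsf10b*, a death receptor and CHOP target, rose by 0.49 (adjusted p = 0.0585). *Nupr1*, a stress-induced chromatin protein, fell from 13.09 ± 0.11 to 12.77 ± 0.11 (adjusted p = 0.0796). *Stc2*, a secreted glycoprotein, had the lowest difference among probes above background on all arrays, at −0.61 (adjusted p = 0.276). The probe of *Fgf21* was well above background on 0 arrays.

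Among genes of amino acid synthesis, transport and one-carbon metabolism, 18 of 23 tested were lower, with a median of −0.13, and 2 fell. *Pycr1*, an enzyme of proline synthesis, went from 6.93 ± 0.13 (SD, n = 4) to 6.35 ± 0.21 (adjusted p = 0.0573 from limma). The other, *Mthfd1l*, a mitochondrial folate enzyme, had a fitted difference of −0.54 (adjusted p = 0.0505). Its probe was above background on 4 Co and 2 Pg arrays, so it was not measured in all Pg mice and is counted among the 2 of this list and the 7 of all lists only with that limit. *Slc7a1*, a transporter of cationic amino acids, was the highest at 0.27 (adjusted p = 0.148) with no overlap. Of the 23 genes for cytosolic aminoacyl-tRNA synthetases and their scaffold, *Wars1* (listed as *Wars*) rose by 0.25 (adjusted p = 0.065) and *Yars1* (listed as *Yars*) fell by 0.23 (adjusted p = 0.0787), with a list median of −0.02. *Wars1*, for the tryptophan enzyme, is also an interferon-induced gene.

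In the unfolded protein response of the endoplasmic reticulum, 18 of 32 genes were higher and 14 lower, with a median of 0.01. *Atf6b*, a relative of the stress sensor ATF6, was the 1 gene past the threshold and fell by 0.37 (adjusted p = 0.0507 from limma). *Creb3l2*, a related membrane-bound factor, had the highest difference at 0.21 (adjusted p = 0.167). In the mitochondrial list, *Trap1*, a mitochondrial chaperone, fell by 0.23 (adjusted p = 0.0683), *Afg3l2*, a protease subunit, was highest at 0.13 (adjusted p = 0.399), and 6 of 12 genes were lower.

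**Figure D4:**
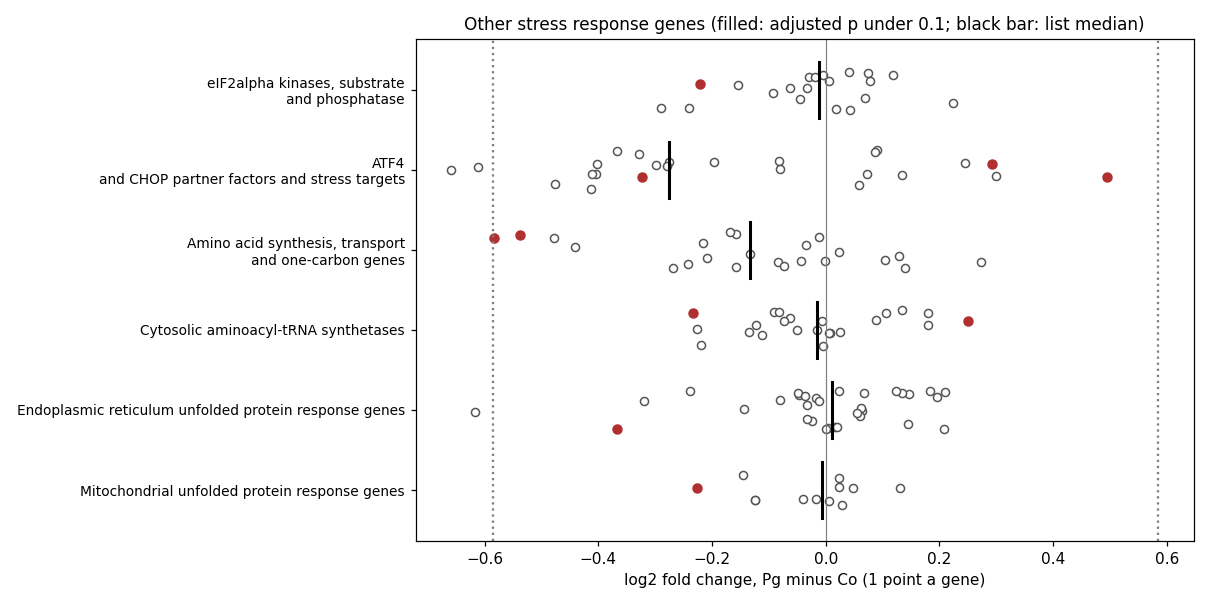
Difference between Pg and Co mice on the log2 scale (x axis, Pg minus Co) of each tested gene in the 6 lists (rows), 1 point a gene; filled points have an adjusted p under 0.1, the black bar is the median of the list and dotted lines mark a fold change of 1.5. Medians lie between −0.28 and 0.01, and 10 points are filled.

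The tissue itself bears on which cells these values come from. *Ucp1*, the uncoupling protein that defines brown adipocytes, was well above background on 0 of the 8 arrays, and so were *Elovl3*, *Slc27a2* and *Bmp8b*, while the other 8 of the 12 brown adipocyte markers were above background on all arrays. Among these were *Fabp3* at 18.09 ± 0.04 (SD, n = 4) in Co and 18.12 ± 0.05 in Pg mice, *Cox8b* at 17.94 ± 0.10 and 18.05 ± 0.05, *Cidea* at 13.44 ± 0.09 and 13.34 ± 0.17, *Ppargc1a* at 12.44 ± 0.45 and 12.08 ± 0.34, and *Ebf2*, *Prdm16*, *Zic1* and *Dio2*. None of the 8 had an adjusted p under 0.1 in limma (1 had an unadjusted p under 0.05, *Dio2* at 0.59). Whether the signal of these 8 came from brown adipocytes or from muscle, whose markers were bright too, was not tested. *Adipoq*, a marker of all adipocytes, was 10.29 ± 0.73 in Co and 10.29 ± 0.56 in Pg mice. Of the 10 adipocyte markers 8 were higher in Pg mice (median 0.07), 0 with an adjusted p under 0.1 in limma and 1 with an unadjusted p under 0.05, *Pparg* at 0.23 without overlap. All 14 skeletal muscle markers were above background on all arrays, *Acta1* at 18.54 ± 0.03 in Co and 18.51 ± 0.07 in Pg mice, and *Ckm* at 16.98 ± 0.03 and 16.83 ± 0.08. *Myh4* varied widely between mice, with 16.09, 16.97, 13.38 and 16.48 in Co and 11.38, 17.07, 17.01 and 14.38 in Pg mice, and no direction is given for it. Of the 14, 11 were lower in Pg mice, 2 of them without overlap (*Ckm* and *Mb*, the latter for myoglobin), and none had an adjusted p under 0.1 in limma (2 had an unadjusted p under 0.05), against 14.3% without overlap and 20.3% at an unadjusted p under 0.05 over all genes. The summed linear signal of the muscle markers ranged from 3758560 to 3975170 in Co and from 3698970 to 3927570 in Pg mice. The brightest of these probes hold top ranks whose values quantile normalization sets (*Tnni2* was at 18.81 on all Pg arrays), so the sums do not measure the share of muscle. Among 7 macrophage markers 6 were higher in Pg mice (median 0.25) and all 6 red cell markers were lower (median −0.61), none with an adjusted p under 0.1 in limma (0 and 0 with an unadjusted p under 0.05). Other markers did pass, and are named here after their values were seen. *Cd79b*, of B cells, rose by 1.69 (adjusted p = 0.0867 from limma), and was the 1 gene past the threshold of 6 tested T and B cell markers, with 5.29 to 6.12 in Co and 6.26 to 8.47 in Pg mice. *Kdr*, of endothelial cells, rose by 0.57 (adjusted p = 0.0573), while *Pecam1* of the same list differed by −0.20 (adjusted p = 0.151), both without overlap. Of 6 tested neutrophil markers 5 were higher in Pg mice, 3 with an unadjusted p under 0.05 and 0 past the threshold. *S100a8* among them had 4.56, 5.20, 5.33 and 5.09 in Co and 8.59, 8.32, 5.18 and 6.76 in Pg mice, a difference of 2.16 (adjusted p = 0.132), and *S100a9* differed by 2.04 (adjusted p = 0.195). The part of these cells in the members' values was not tested, and in bulk tissue fewer cells of a type and less RNA per cell cannot be told apart.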

How the data were processed

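Per the file headers, the authors scanned 8 one-color (Cy3) arrays and extracted them with Agilent Feature Extraction 11.0.1.1. The deposited intensity of each spot had been background-subtracted and detrended, with no normalization between arrays; raw mean, median and background intensities stand beside it. A deposited table of 28067 probes holds the authors' quantile-normalized log2 values, used as an alternative, and the fold changes, p-values and GO text of their own comparison, which were not used.

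Spots that are not controls (59305) and not marked as outliers were averaged per probe, quantile-normalized and log2-transformed, with values under 1 set to 1, in R 4.3.3 with limma 3.58.1. The fit took probes that were well above background on 4 or more arrays and ran lmFit and eBayes, two-sided, with Benjamini-Hochberg adjustment. As in the study's methods, the threshold was an adjusted p under 0.1, with a fold change above 1.5 for a differentially expressed gene. Fits were tested on simulated data. Probes were assigned by the gene name on the array. Gene positions of probes are on mm9 and promoter windows on GRCm38.p6.

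The named genes are the members, in each list the genes past the threshold and the highest and lowest difference among probes above background on all arrays, defining markers, and the 3 genes most like the member of lowest p, of which 1 is not reported here. Members, lists and tests were chosen with earlier results of these data known. Precision is limited by the 4 arrays a group, for which an exact permutation test has 70 splits. The labels do not say how the RNA of each mouse was batched.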

Additional observations from a re-analysis of the deposited data

Results flagged for a closer look

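A sample far from the others of its group was found in 2 of the 34 groups of 4 values tested, where chance gives about 1.7. In *Atf5* (probe A_51_P269216), Co replicate 4 had a log2 signal of 14.71, against 14.54 to 14.55 in replicates 1 to 3, a gap of 0.944 of the range. In *Xbp1* (probe A_52_P185079), the log2 signal of Pg replicate 4 was 10.85, against 11.19 to 11.24 in replicates 1 to 3, a gap of 0.85 of the range. Without these arrays neither probe had an adjusted p under 0.1 in limma.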

How the results depend on the processing

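The count of member probes at an adjusted p under 0.1, 2 as reported, was 0 without normalization between arrays and 0 with the replicate block, 1 without the filter on dim probes, 1 with the authors' normalized values (where 11 member probes are listed, neither of the 2 called ones among them, and the 1 is the *Herpud1* probe nearer the 3′ end), 4 with an intensity trend in eBayes and 0 with only the probe nearest the 3′ end of each gene, and it ran from 0 (without Co replicate 3) to 2 (without Co replicate 1) with an array left out. The share of all tested probes at an adjusted p under 0.1 moved as well, from 7.82% as reported. It was 0.0857% without normalization, 0% with the replicate block, 2.24% without the filter, 6.11% with the authors' values and 10.3% with the trend. With an array left out it ran from 0.00607% (2 probes, without Co replicate 3) to 7.16% (without Pg replicate 3). No member probe passed the fold change of 1.5 as well under any setting run. Over all tested probes, 546 as reported passed both limits (106 higher and 440 lower). The count was 283 with scaling to the 75th percentile (137 and 146), 27 without normalization (20 and 7), 94 with normexp (66 and 28), 108 with median signals left unsubtracted (75 and 33), 318 with probes above background on all arrays (107 and 211), 106 with the authors' values (60 and 46), 0 with the replicate block, and from 2 (without Co replicate 3) to 692 (without Pg replicate 3) with an array left out. The pathway genes at an adjusted p under 0.1, 10 as reported, were 0 without normalization, 0 with the replicate block, 18 with the trend and 0 to 12 with an array left out (0 without Co replicate 2 or 3). Of single member probes, *Trib3* ran from −0.198 (without Pg replicate 1) to 0.0303 (without Pg replicate 2), and *Xbp1* (probe A_55_P1994032) turned to −0.0392 with the authors' values. Neither was past the threshold in any setting. Other differences that missed the threshold also moved by over 1.5 times, among them *Asns* from 0.303 to 0.048 with the authors' values and 0.177 without Pg replicate 1, its second probe from −0.219 to −0.0365 without Pg replicate 3, *Ppp1r15a* from 0.262 to 0.142 without Co replicate 4 and 0.403 without Co replicate 2, the second *Ddit3* probe from −0.175 to −0.0612 without Co replicate 1, the *Atf5* probes from 0.123 to 0.0722 without Co replicate 1 and from 0.11 to 0.0606 with scaling to the 75th percentile, *Xbp1* from 0.161 to 0.0495 without Co replicate 4 and its second probe from −0.0949 to −0.00527 without Pg replicate 4, and *Sesn2* from −0.131 to −0.0658 without Co replicate 2. Same-numbered arrays correlated at −0.07 to 0.18 in their deviations from the group means, and 2 of the 4 numbers correlated best with their own. They share a slide column. With the replicate block, the *Herpud1* probe nearer the 5′ end had an adjusted p of 0.122 and the *Atf4* one of 0.153. The *Herpud1* probe nearer the 3′ end passed with the median signal (adjusted p = 0.0899 from limma), the trend (0.0999) and the authors' values (0.0711). *Ddit3* (NM_007837) passed with normexp (0.077) and the trend (0.094). The cause of these changes was not tested. Dim probes are limited by signal over background, as for the second *Asns* probe.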
